A study of Gallus gallus with 3 samples.

Results

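SCRT2, MYT1, ST18 and MYT1L are zinc finger transcription factors of young neurons, and their RNA was measured in the spinal neural tube of chicken embryos at the Hamburger-Hamilton stages HH14 and HH19. The genes were taken by symbol from a list of 6, and 4 of them had a row among the 15916 genes of the table. No row carried the symbol SCRT1 or INSM1, and these genes were not analysed here. The genes were chosen by their TPM values at HH14 and HH19, so the comparison of the stages is given as a description, with no test.

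The SCRT genes belong to the Snail superfamily of repressors, which bind DNA through zinc fingers and recruit corepressors through a short SNAG domain. In the mouse cortex, Scratch proteins act in cells that have just become neurons and favour the start of their migration, in part by lowering E-cadherin. MYT1, MYT1L and ST18 form a separate family whose zinc fingers are of the CCHC type. In Xenopus, MyT1 promotes neuron formation and makes cells less sensitive to Notch-mediated lateral inhibition, and in the mouse MYT1L represses non-neuronal genes in neurons.

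All embryos were wild-type White Leghorn, with no treatment named in the labels, and each library held spinal neural tube of about 25 embryos, taken at brachial level and further caudally. Tissue beside and below the tube was removed by hand, partly after trypsin, and polyadenylated RNA was sequenced. The stages were represented by 2 libraries at HH14 and 1 at HH19. The HH19 label carries the dissection text written for HH14. Expression was deposited as TPM, a share of transcripts corrected for gene length, in 1 column for both HH14 libraries and 1 for HH19. The HH14 values below are therefore the authors' single values with no SD, and no p-value was computed. The absolute depth is unknown. Each gene and library behaves as if 1 read had been added before scaling. The TPM values below include this read, whereas read counts and ratios given with an interval leave it out. The steps between low values gave whole reads per library for 5158 genes, 32.4% of all, among them 1419 whose mean reached 1 TPM (denoted recovered genes below). Cell type markers are called recovered at any mean. The shallower HH14 library is called A and the deeper B, which had 1.28 times the depth of A. Which label each of them belongs to is unknown, and their TPM values take the HH14 column as the plain mean of both. Intervals below are 95% intervals from these reads and cover counting error only.

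Markers of neural tube progenitors were abundant at both stages. SOX2 and PAX6, factors of neural progenitors, stood at 178 and 125 TPM in the HH14 column and at 185 and 166 TPM in the HH19 column. The 6 matched markers of this kind, of 11 listed, summed to 572 TPM in the early and 841 TPM in the later column. DBX1, a factor of intermediate progenitors, was higher at HH19, with 57.2 and 155 TPM and a difference of 1.42, and the dorsal factor MSX1 had 98.5 and 181 TPM. In the following, the first of a pair of TPM values is from HH14 and the second from HH19. Of 11 listed neural crest and sensory ganglion markers, 9 were matched by symbol, and their summed level was 71.4 and 27.3 TPM. The 7 matched surface ectoderm markers summed to 143 and 110 TPM, the 9 paraxial mesoderm and muscle markers to 50.9 and 73.0 TPM, and the 7 endothelial and blood markers to 36.0 and 45.6 TPM. PAX3, which dorsal neural tube also expresses, gave most of the mesoderm sum, with 45.1 and 61.7 TPM. The part of these other cells in the values of the zinc finger genes was not tested.

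The level of SCRT2 was 3.38 TPM at HH14 and 9.01 times higher, at 30.5 TPM, at HH19. As log2(TPM + 1), a scale on which differences of weakly expressed genes shrink, the stages differed by 2.84. A mean of 1 TPM or more over the 3 libraries was reached by 11097 genes, and 3 of these had a larger difference. In the order of all 15916 genes by TPM, SCRT2 moved from rank 9347 to rank 4588. In bulk tissue, fewer cells that express a gene and less RNA per cell cannot be told apart.

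The HH14 value of SCRT2 joined a pair of unlike libraries. Library A held 14 reads of SCRT2, or 1.14 TPM, and library B held 94 reads, or 5.63 TPM, beside 422 reads at HH19. Library A was thus low, library B between, and the HH19 library high, and their counting intervals did not overlap. Without the added read the level in B was 5.24 times that in A (95% interval 2.97 to 9.95). HH19 was 5.46 times above B (4.36 to 6.90) and 28.6 times above A (16.9 to 52.8). The difference between the HH14 libraries was 1.63 on the log2(TPM + 1) scale, and 6 of the 1419 recovered genes had a larger difference in that direction. Among the recovered genes B was above A by at least 1 on that scale in 3.81% and below A by as much in 5.5%. The HH19 level of SCRT2 was thus above each HH14 library, by a size that depended on the library.

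Markers of other cells also differed between the HH14 libraries. The 8 recovered paraxial mesoderm and muscle markers summed to 3.97 TPM in A, 7.62 TPM in B and 11.3 TPM at HH19. In B 8 of 8 were higher than in A, the direction of SCRT2, but 0 by 1 or more on the log2(TPM + 1) scale. Among recovered genes 3.81% were higher in B by that much, and the share higher by any amount was not counted. The largest difference of the 8 was that of PAX1, 0.92, with 24 reads in A and 102 in B. Its levels were 0.672 TPM in A, 2.16 TPM in B and 1.30 TPM at HH19. UNCX had 2 reads in A and 31 in B, and MEOX2 4 and 24, differences that this scale shrinks at low levels. MEOX2, MYF5, MYOD1 and TBX6 had means below 1 TPM, and MYF5 had 2 reads in A and 4 in B. MEOX1 was nearly level, with 1.18 and 1.25 TPM. Without UNCX, which some interneurons also express, the other 7 summed to 3.86, 6.73 and 6.89 TPM, so that the sums in B and at HH19 were nearly level. Single genes moved both ways, with 3 of the 7 above B at HH19. MEOX2 had 0.354 TPM in B and 1.32 TPM at HH19, while PAX1 was lower at HH19. TCF15, a factor of somites, had 1.45, 2.35 and 2.50 TPM. The 2 recovered endothelial and blood markers summed to 0.775, 1.91 and 4.35 TPM. The 4 recovered neural crest and sensory ganglion markers ran the other way, with 11.7, 9.41 and 4.68 TPM, as did the 4 surface ectoderm markers, with 13.6, 6.54 and 4.05 TPM. The part of these cells in the SCRT2 difference between the libraries was not tested.

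**Figure D1:**
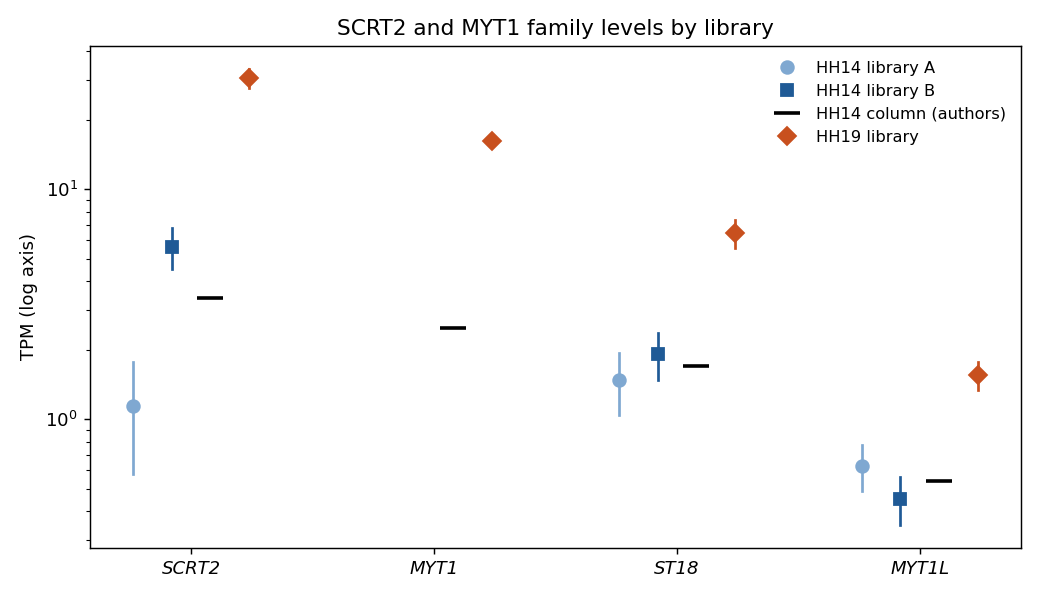
TPM (log axis) of the 4 genes in each library, with lines for the 95% counting intervals of the recovered reads without the added read, and a black bar for the authors' HH14 column. SCRT2 stands at 1.14, 5.63 and 30.5 TPM in library A, library B and HH19, whereas the HH14 libraries lie close together for ST18 and MYT1L, and MYT1 has no recovered HH14 libraries.

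MYT1, the founding gene of its family, went from 2.49 TPM in the HH14 column to 16.2 TPM in the HH19 column, which is 6.49-fold higher. Its difference on the log2(TPM + 1) scale was 2.30, and 15 of the 11097 genes had a larger one. The reads of MYT1 per HH14 library could not be recovered. The number of chance solutions expected for MYT1 was 0.0501, above every limit tried for accepting a gene. If the HH14 column is the plain mean of its 2 libraries, which the sources do not state, neither of them can have held more than 4.98 TPM of MYT1. Against that limit HH19 was 3.25 times higher, or 1.52 on the log2(TPM + 1) scale.

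ST18, the MYT1 paralog also called MYT3, stood at 1.70 TPM and, 3.80-fold higher, at 6.46 TPM, with a difference of 1.47 on the log2(TPM + 1) scale. The reads were 43 in library A, 72 in library B and 201 at HH19, which gave 1.48, 1.92 and 6.46 TPM. The HH14 libraries were close to each other and both lay below HH19. Library B was at 1.31 times the level of A, and the interval of 0.884 to 1.95 includes equality. HH19 lay 3.39 times above B (2.58 to 4.51) and 4.44 times above A (3.18 to 6.32). Among the 1419 recovered genes, 504 had a larger difference of B over A than ST18.

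MYT1L, the neuron-specific paralog, was the lowest of the 4 genes, with 0.540 TPM at the early and 1.56 TPM at the later stage. Its mean of 0.879 TPM was below the minimum of 1 TPM, so it was left out of the counts. Its level was 2.88-fold higher at HH19, but the difference on the log2(TPM + 1) scale was 0.73. At a looser limit on chance solutions (0.01 expected, where 0.003 was used elsewhere), its reads were 76 in library A, 70 in library B and 200 at HH19, or 0.628, 0.452 and 1.56 TPM. Library A was here the higher of the HH14 libraries, with B at 0.719 times A, but the interval of 0.512 to 1.01 includes equality. HH19 lay above both, at 2.50 times A (1.91 to 3.30) and 3.47 times B (2.63 to 4.63).

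Of the 3 zinc finger genes that passed the minimum, all 3 were at least 2-fold higher at HH19 on the log2(TPM + 1) scale. Over all 11097 genes 3.93% were that much higher and 1.38% that much lower, and since the genes were chosen for this contrast nothing is read from their count. Both recovered genes, SCRT2 and ST18, were also higher than library B alone, with differences of 2.25 and 1.35, and higher than library A alone, with 3.88 and 1.59. Among recovered genes 7.61% were at least 1 above B and 15% at least 1 above A. The order of levels at HH14 was SCRT2, MYT1, ST18 and MYT1L, and it was the same at HH19. In library A alone the order differed, with ST18 at 1.48 TPM above SCRT2 at 1.14 TPM, and the counting intervals of these levels overlapped.

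**Figure D2:**
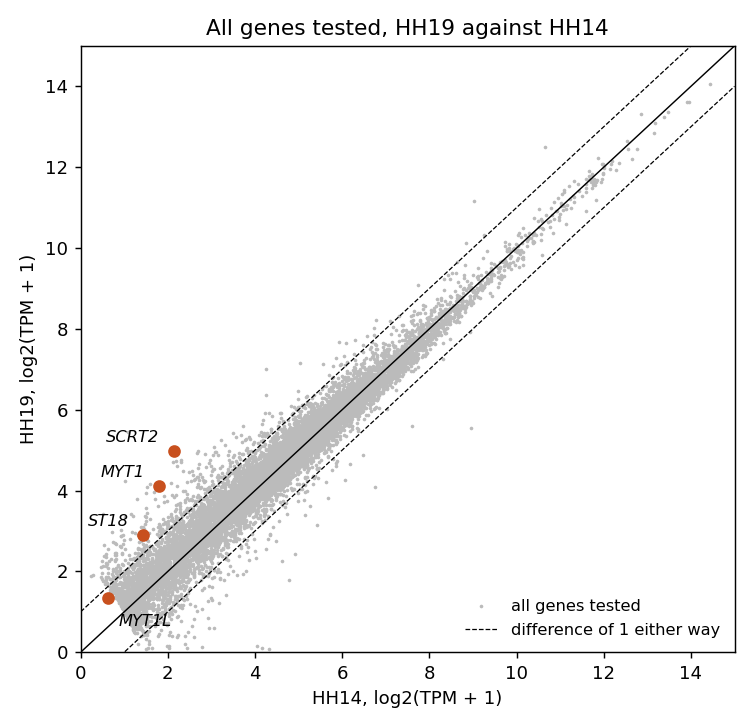
log2(TPM + 1) at HH14 (x) and HH19 (y) for the 11097 genes whose mean reached 1 TPM (grey), with SCRT2, MYT1, ST18 and MYT1L in orange and dashed lines at a difference of 1 either way. SCRT2, MYT1 and ST18 lie above the upper line, by 2.84, 2.30 and 1.47 over equality, and MYT1L, at 0.73, lies below it.

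The MYT1 family as a whole summed to 4.73 TPM at the early and 24.2 TPM at the later stage. MYT1 made up 52.6% of this sum at HH14 and 66.9% at HH19. ST18 made up 35.9% and 26.7%, and MYT1L 11.4% and 6.43%. The family's largest member thus took a larger share at the later stage.

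The levels were also set against general neuronal transcripts of the same column. The tubulin gene TUBB3 of neurons stood at 213 and 540 TPM. SCRT2 was at 1.59% of TUBB3 at HH14 and at 5.64% at HH19, and MYT1 at 1.17% and 3.00%. ST18 was at 0.798% and 1.20%, while MYT1L, at 0.254% and 0.288%, kept nearly the same ratio to TUBB3. Of 26 listed newborn neuron genes 22 were matched by symbol, and 12 of these were at least 2-fold higher and 0 lower. Over all 11097 genes 3.93% were that much higher and 1.38% that much lower. The median difference of the 22 was 1.12, beside 0.05 over all 11097 genes. Against the summed TPM of the 22, MYT1L stood at 0.0499% and 0.0718%, so its nearly equal ratio held for TUBB3 as the reference. None of the 22 had a larger difference than SCRT2, 2 had a larger one than MYT1, 8 than ST18 and 15 than MYT1L. The 2 above MYT1 were STMN2 (17.9 and 127 TPM) and STMN3 (3.97 and 25.3 TPM), both regulators of microtubules. SYT4, a synaptotagmin, had 0.898 and 6.32 TPM and GAP43, a growth cone protein, 12.2 and 47.5 TPM. DPYSL2, the most abundant after TUBB3, had 185 and 210 TPM. SYT4 was the member of this list recovered per library, with 0.815 TPM in A and 0.980 TPM in B, so the HH14 libraries lay closer together for SYT4 than for SCRT2.

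**Figure D3:**
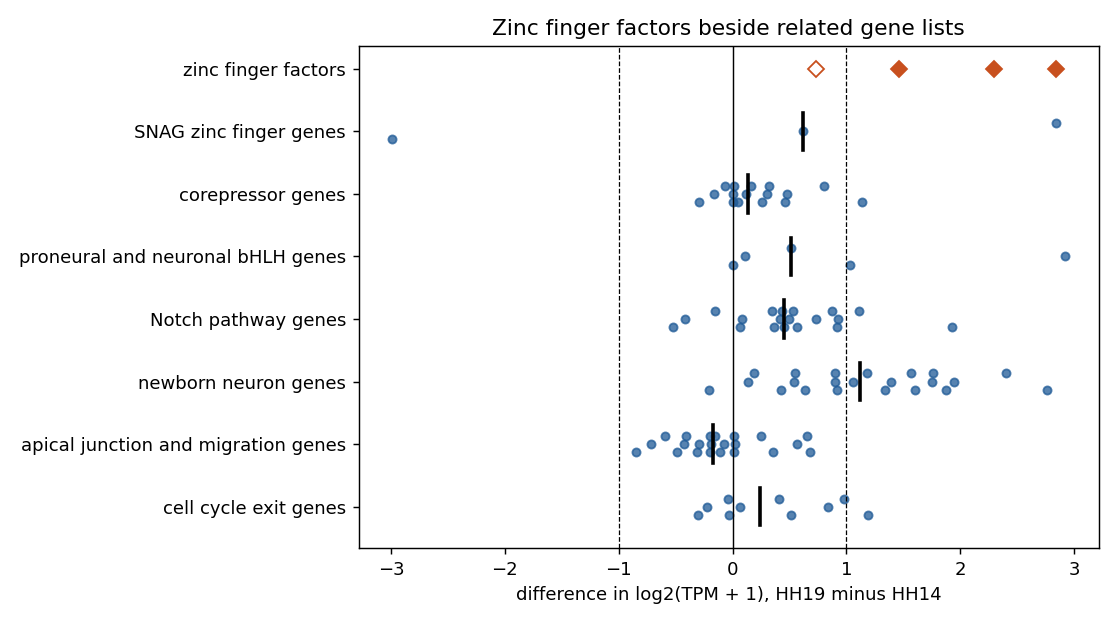
Difference in log2(TPM + 1), HH19 minus HH14, for the 4 zinc finger genes (diamonds, open for MYT1L, which was below the minimum level) and for the genes of 7 related lists whose mean reached 1 TPM (points), with black bars for the list medians and dashed lines at a difference of 1 either way. The newborn neuron genes have the highest median of the lists, 1.12, and SCRT2, at 2.84, lies above each newborn neuron gene, while PTF1A of the bHLH list, at 2.92, lies above SCRT2.

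Among other genes with a SNAG domain, directions differed. SNAI2, the Snail family gene of migrating neural crest, had 26.3 and 2.45 TPM, a difference of -2.99, opposite in direction to SCRT2. SNAI2 is also one of the listed neural crest and sensory ganglion markers. Of the 6 such markers at the minimum level, 4, SNAI2 among them, were at least 2-fold lower and 1 higher. The part of neural crest cells in the SNAI2 values was not tested. SNAI1, an inducer of epithelial-mesenchymal transitions, had 0.784 and 1.74 TPM, 2.22-fold higher at HH19 but with a difference of 0.62 on the log2(TPM + 1) scale. The HH14 libraries A and B held 0.622 and 0.946 TPM of SNAI1, the same order over the 3 libraries as for SCRT2. The reads of SNAI1 were 19 in A, 38 in B and 58 at HH19, and no counting interval was computed for this order. GFI1 and GFI1B, blood and sensory factors, stayed near the floor with 0.0220 and 0.0469 TPM and 0.0841 and 0.110 TPM. Of 9 listed genes 5 were matched by symbol and 3 reached the minimum, of which 1 (SCRT2) was higher and 1 (SNAI2) lower. Beside this stood 3.93% higher and 1.38% lower over all 11097 genes. The sum of SCRT2, SNAI1, SNAI2, GFI1 and GFI1B was 30.6 and 34.8 TPM, with SNAI2 the main part at HH14 and SCRT2 at HH19.

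Of the genes listed as corepressors, a list that also holds the repressor REST, most lay within 2-fold. Of 17 listed genes 16 were matched, 1 was at least 2-fold higher and 0 lower, with a median difference of 0.14. Over all 11097 genes 3.93% were higher and 1.38% lower by as much, so nothing is read from these counts. KDM1A, the histone demethylase that binds SNAG domains, had 194 and 232 TPM. HDAC1 had 108 and 103 TPM, and HDAC2, the most abundant of the list, 761 and 621 TPM. SIN3B, reported as a partner of MYT1 in rodents, had 12.8 and 18.0 TPM. REST, a repressor of neuronal genes in other cells, had 17.4 and 15.5 TPM. The higher gene was GSE1, with 6.68 and 15.9 TPM, a difference of 1.13.

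Basic helix-loop-helix factors act upstream of these genes or beside them, but 6 of 17 listed ones were matched by symbol. NEUROG1, NEUROG2 and ATOH1 had no row under these symbols and were not analysed here. PTF1A, a factor of dorsal inhibitory neurons, had 0.424 and 9.76 TPM, a difference of 2.92, larger than that of SCRT2. Its reads were 1 in library A, 5 in library B and 80 at HH19. NEUROD1, a factor of differentiating neurons, had 0.667 and 2.40 TPM, with 0.421 TPM in A and 0.912 TPM in B. The HH14 libraries of both genes lay below HH19. The widely expressed partners differed less, with TCF12 at 284 and 285 TPM, TCF3 at 141 and 202 TPM and TCF4 at 3.75 and 4.13 TPM. NEUROD6 had 0.0231 and 0.0246 TPM. Among the 5 at the minimum level, 2 counted as higher and 0 as lower (median 0.51). The shares over all 11097 genes were 3.93% higher and 1.38% lower.

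Notch signalling keeps neighbouring cells from becoming neurons at the same time. Of 22 listed genes 19 were matched, and 2 were at least 2-fold higher and 0 lower, with a median difference of 0.46. The shares over all 11097 genes were 3.93% higher and 1.38% lower. The higher genes of the list were HEYL, a Notch target (10.3 and 42.0 TPM), and the ligand DLL4 (2.93 and 7.48 TPM). Of the remaining genes, DLL1, the main ligand of differentiating neural cells, had 68.2 and 93.8 TPM, and NOTCH1 58.9 and 109 TPM. The targets HES5, HES4 and NRARP had 264 and 352 TPM, 77.7 and 149 TPM, and 191 and 317 TPM. LFNG, a glycosyltransferase that modifies Notch, had 341 and 645 TPM. RBPJ, the DNA-binding partner of Notch, had 17.5 and 11.8 TPM. HES1, the gene that mouse MYT1 represses, had no row under its symbol.

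Genes of the apical junctions and of migration, which newborn neurons alter when they leave the ventricular surface, lay within 2-fold. All 22 listed genes were matched, 0 were at least 2-fold higher or lower, and their median was -0.17. Over all 11097 genes 3.93% were that much higher and 1.38% that much lower, so nothing is read from this count of 0. CDH1, the E-cadherin gene, had 1.25 and 0.676 TPM, and the HH14 libraries A and B held 1.55 and 0.946 TPM. Its order over the 3 libraries was the reverse of that of SCRT2. The reads of CDH1 were 101 in A, 79 in B and 46 at HH19, and no counting interval was computed for this order. CDH1 is also a surface ectoderm marker. The other 3 recovered markers of that list summed to 12.1 TPM in A, 5.59 TPM in B and 3.37 TPM at HH19, the same order as CDH1. Of these, TP63 was about level in B and at HH19, with 1.59 and 1.66 TPM. Their part in the CDH1 values was not tested. The most abundant genes of the list, CTNNB1 (653 and 603 TPM) and CDC42 (408 and 415 TPM), were within 2-fold, as was N-cadherin, CDH2, at 230 and 232 TPM.

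Among cell cycle exit genes, 13 of 16 were matched and 10 reached the minimum. Of these, 1 was higher and 0 lower, with a median of 0.24. Beside this stood 3.93% higher and 1.38% lower over all 11097 genes. PROX1, a homeodomain factor of cells that leave the cycle, had 0.874 and 3.27 TPM. BTG1, an antiproliferative gene and the most abundant of the list, had 306 and 437 TPM. The related BTG2 had 38.8 and 77.6 TPM, a difference of 0.98. The cyclin dependent kinase inhibitor CDKN1B had 61.4 and 81.9 TPM and CDKN1A 1.12 and 1.08 TPM. GADD45A, a growth arrest gene, had 62.4 and 113 TPM.

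The genes closest to each member were found by distance in log2(TPM + 1) over the 2 columns. Nearest to SCRT2 were RAMP1, GPC3, C8orf46, STMN3 and EEF1A2, with distances of 0.250 to 0.377. Nearest to MYT1 were ROBO3, ADAMTS8, GPM6A, UTS2B and ISL1, at 0.226 to 0.317. ISL1, a homeodomain factor of motor neurons, had 2.25 and 12.9 TPM. Nearest to ST18 were SYNDIG1L, CRHR1, MIR1800, CDCP2 and FXYD6, at 0.0999 to 0.159, and nearest to MYT1L were SPEG, MIR1707, ADAMTS15, MIR106A and ARL10, at 0.148 to 0.187.

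Over the 3 libraries, among the 1141 recovered genes with a symbol, the gene nearest to SCRT2 was C8orf46 at a distance of 0.285. It had 1.20 TPM in library A, 5.45 TPM in B and 24.9 TPM at HH19. LHX1, a LIM homeodomain factor of interneurons, was also near, at 0.776, with 1.98, 7.31 and 21.0 TPM. Farther off were FERD3L, a floor plate bHLH factor, with 1.42, 8.78 and 18.2 TPM, and MID2, with 1.44, 6.80 and 14.9 TPM. These genes were lowest in library A and highest at HH19, as their closeness to SCRT2 requires. Nearest to ST18 were FXYD6, TRPC6, FHL1, NAA60 and XKR7, at 0.204 to 0.403.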

How the data were processed

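RNA-seq expression values deposited by the authors as TPM per Ensembl gene were used, with both HH14 libraries in a single column. Per the submitters' processing notes, TopHat2, SAMtools, FastQC and DESeq2 had been used with the build galGal4. What each did, the counting step and the merging of the HH14 libraries are not given in the sources. The columns summed to 957154 and 946462 TPM.

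Differences are of log2(TPM + 1), with a pseudocount of 1. Genes whose mean over the 3 libraries reached 1 TPM were counted, as higher or lower where the stages differed by 1 or more. With 1 column a stage no test was run. The members, gene lists and the rule for named genes were chosen with earlier results of these data known. The rule named every gene of the bHLH, SNAG and Notch lists, up to 4 genes with the largest differences and the 2 most abundant in each list, and the 5 genes nearest to a member. Other genes were chosen after their values were seen, and some genes that the rule names are not reported here.

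Low values are whole multiples of the value of 1 read. In 1426 genes without a read the HH14 column was 0.938 times the HH19 column. Combinations of whole reads in the 3 libraries were searched up to 1500 for HH19, with HH14 taken as the plain mean of 2 libraries. Genes were accepted with up to 0.003 chance solutions expected, a value per read of up to 0.2 TPM and a mean under 20 TPM, so abundant genes are missing. The smallest combination was used, so true reads may be a multiple. In 1269 such genes with 40 or more HH14 reads and a mean of 1 TPM or more, the median log2 ratio of B over A was 0.02, near equality. Intervals are exact (Poisson, or binomial for ratios). Reads without molecular identifiers are not independent molecules. The steps were tested on simulated data. No sequences were used. Neighbouring genes were read from RefSeq, assembly GRCg7b, by symbol, without coordinates. The software was numba 0.67.0, scipy 1.17.1, matplotlib 3.10.9, pandas 2.3.3 and numpy 2.4.6 under Python 3.11.15. As alternatives, the pseudocount was set to 0.1 or 5, the minimum mean was removed or raised to 5 TPM, the columns were scaled by median ratio or quantile normalized, each HH14 library was used alone and other chance limits were tried.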

Additional observations from a re-analysis of the deposited data

How the results depend on the processing

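SCRT2 and MYT1 were at least 2-fold higher at HH19 under every pseudocount, filter and scaling tried. ST18 differed by 0.77 at a pseudocount of 5 and MYT1L by 1.37 at 0.1. Against a single HH14 library, SCRT2 ranged from 2.25 to 3.88 and ST18 from 1.35 to 1.59. At a chance limit of 0.001 only 1 of the 4 genes, ST18, was recovered per library. Over all genes, 149 were higher and 46 lower at a pseudocount of 5, 279 lower at 0.1, and 261 higher and 85 lower when the minimum mean was 5 TPM. Against single HH14 libraries, where fewer genes are recovered, 108 to 213 were higher and 20 to 82 lower. A pseudocount of 5 left 0 higher corepressor genes, 1 bHLH gene, 1 Notch gene and 0 cell cycle exit genes. A pseudocount of 0.1 gave 2 higher SNAG genes. A minimum mean of 5 TPM left 0 bHLH genes, 1 Notch gene and 0 cell cycle exit genes. Median-ratio scaling left 1 bHLH gene, and quantile normalization 1 bHLH gene, 1 Notch gene and 0 corepressors. Against single HH14 libraries 1 to 2 bHLH genes, of 2 recovered at the minimum level, were higher. The 1 newborn neuron gene recovered at that level was higher against each. Of the corepressor list 0 genes were recovered, so none could be counted. The Notch and cell cycle exit lists had 1 recovered gene each, and 0 were higher. No SNAG gene was lower (0), but SNAI2, the lower one of the columns, was not recovered. Nothing is read from these counts of 0. No paired analysis was possible because HH19 has 1 library and the HH14 pair shares 1 column. The added read and the single HH19 library limit what the low levels of MYT1L can show.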

Other observations

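The neighbours of the zinc finger genes in the chicken genome, in the RefSeq order of assembly GRCg7b, did not share their differences. SCRT2 lies between SLC52A3, a riboflavin transporter (16.3 TPM at HH14, 23.9 TPM at HH19), and TCF15, a bHLH gene of somites with 1.90 and 2.50 TPM, when genes without a row are passed over. The genes beside MYT1 were PCMTD2 (14.4 and 17.2 TPM) and, with 1 gene passed over, NPBWR2 (0.771 and 0.623 TPM). The mean of NPBWR2 was below 1 TPM. ST18 lies between PCMTD1 (8.47 and 8.90 TPM) and RB1CC1 (15.6 and 15.0 TPM). Before MYT1L lies PXDN, a peroxidase of the matrix with 30.5 and 12.5 TPM, lower at HH19 by 1.22 on the log2(TPM + 1) scale. After MYT1L, with 1 gene passed over, comes TSSC1 (33.9 and 26.3 TPM).

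MYT1 and ST18 are also known from endocrine cells of the mouse pancreas. Of 9 listed endocrine markers 6 were matched. PDX1 had 0.0770 and 0.0411 TPM, GCG 0.0460 and 0.0798 TPM, and INS 0.343 and 0.563 TPM, and SST had 0.902 and 0.975 TPM. PDX1, GCG and INS had 0 to 5 reads in each library. The 2 markers whose mean reached 1 TPM, ISL1 and CHGA, were both at least 2-fold higher at HH19. Over all 11097 genes 3.93% were that much higher. ISL1 is also a factor of motor neurons, and nothing about endocrine cells is read from this count. CHGA, a granin of secretory vesicles, had 17.9 and 81.0 TPM.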
